A study of Mus musculus with 4 samples.

Results

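The 10 transcripts Apoe, C1qa, C1qb, C1qc, Csf1r, Adgre1, Mrc1, Cd68, Lyz2 and Trem2, which are enriched in tissue macrophages, were followed across 4 mouse mammary tumour libraries. They were taken by name from a table of 51826 genes, and all 10 were among the 21607 genes that passed the filter on low counts. The samples were C3-T+ tumours, 2 with both copies of Elf5 (Elf5+/+, WT) and 2 heterozygotes (Elf5+/-, HET), so all 4 carried C3-T and no tumour lacked Elf5 on both alleles. Elf5 is an ETS family regulator of mammary luminal cells, and the comparison asks how transcripts differ when 1 copy of it is lost. The sources used here give neither the age of the mice nor the promoter that drives C3-T. Per the labels, tumours were digested with collagenase and hyaluronidase and then sorted with antibodies to CD45 (leukocytes), CD31 (endothelium) and TER119 (erythroid cells) to enrich the tumour cells. The macrophage transcripts were thus read in libraries from which CD45-positive cells were meant to be depleted.

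Both HET libraries share a leading number in their titles and may be 2 tumours of 1 animal, while the WT titles carry different numbers. Nothing in the labels says that the libraries came from separate animals, so the p-values below measure only the spread between these samples. Totals lay between 12695132 and 15307939 counts, at which a count of 0 allows up to 0.239 CPM (counts per library size, the latter set with TMM factors). For Elf5 itself, WT 1 gave 35.6 CPM, WT 2 gave 4.70, HET 1 gave 5.39 and HET 2 gave 10.6. WT 2 therefore lay below both HET libraries for the gene that defines the groups, and it is called the library labelled WT 2 throughout. It also stood apart in breadth, with no count at 44.5% of genes against 29.9% to 31.3% in the others.

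Macrophages of solid tumours depend on signalling through the receptor CSF1R, whose ligands are CSF1 and IL34, and on the transcription factor PU.1 (Spi1). Mature tissue macrophages make the 3 chains of C1q, the recognition part of the first complement component, together with the lysosomal proteins CD68 and lysozyme. A lipid-handling state of these cells is marked by the receptor TREM2 and by apolipoprotein E, which TREM2 can bind. APOE is also made by many cells that are not leukocytes, lysozyme by neutrophils and the mannose receptor by some endothelium.

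The RefSeq table of promoter windows (GRCm38.p6, 250 bases before to 50 after each gene's start) matched 7 of the 10 genes with 9 windows. C1qa, Csf1r and Adgre1 were not matched. Windows are shown for the 2 matched C1q chains, which share a locus, for Lyz2, and for Mrc1, whose pattern over the HET libraries differs from that of the rest. They are written 5′ to 3′ in the direction of the gene, with GAGGAA (the core of the PU.1 site) and TGCTGA (part of the site of the MAF factors) in capitals. A match on the other strand is read as TTCCTC for GAGGAA.
C1qb, chr4:136886151-136886450, minus strand: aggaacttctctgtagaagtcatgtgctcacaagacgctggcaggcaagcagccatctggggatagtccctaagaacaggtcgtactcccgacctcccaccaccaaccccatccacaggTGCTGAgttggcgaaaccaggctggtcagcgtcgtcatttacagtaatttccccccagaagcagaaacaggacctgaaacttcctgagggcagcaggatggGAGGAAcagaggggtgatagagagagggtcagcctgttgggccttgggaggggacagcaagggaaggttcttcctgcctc
C1qc, chr4:136892865-136893164, minus strand: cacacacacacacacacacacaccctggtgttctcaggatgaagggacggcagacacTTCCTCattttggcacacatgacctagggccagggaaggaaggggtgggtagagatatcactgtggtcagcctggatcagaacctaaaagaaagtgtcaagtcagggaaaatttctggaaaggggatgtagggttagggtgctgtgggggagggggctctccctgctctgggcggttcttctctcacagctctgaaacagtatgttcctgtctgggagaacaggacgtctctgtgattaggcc
Lyz2, chr10:117282223-117282522, minus strand: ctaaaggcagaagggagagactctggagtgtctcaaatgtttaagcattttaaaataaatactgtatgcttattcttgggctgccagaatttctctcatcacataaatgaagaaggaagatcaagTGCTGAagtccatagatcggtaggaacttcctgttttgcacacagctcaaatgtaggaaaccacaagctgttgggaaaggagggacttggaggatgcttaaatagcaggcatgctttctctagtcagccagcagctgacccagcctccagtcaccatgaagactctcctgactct
Mrc1, chr2:14229164-14229463, plus strand: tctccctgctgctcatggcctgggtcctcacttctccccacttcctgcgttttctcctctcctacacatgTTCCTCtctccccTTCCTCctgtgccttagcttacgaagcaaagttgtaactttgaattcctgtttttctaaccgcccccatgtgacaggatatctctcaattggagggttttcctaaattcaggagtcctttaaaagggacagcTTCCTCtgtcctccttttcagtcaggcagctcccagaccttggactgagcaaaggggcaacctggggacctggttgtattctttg
In C1qb the GAGGAA match lay 30 bases before the start and the TGCTGA match 131 before it. The C1qc window held a single GAGGAA match, 193 bases before the start on the other strand. These distances are counted from the RefSeq start of each window, which can differ from the gene coordinates given below. For C1qc the gene coordinates begin at 136893065, inside the window and before the RefSeq start, and the match lies nearer to that base. Mrc1 held 3 matches to GAGGAA, at 180, 167 and 35 bases before its start, all on the other strand, and Lyz2 held only TGCTGA, 125 bases before.
GAGGAA was searched on both strands and occurred in 7 of the 9 windows of these genes (6 of 7 genes, Apoe having 3 windows) and in 28.3% of all 32851 windows. TGCTGA occurred in 2 of the 9 (C1qb and Lyz2) and in 19.5% of all windows, and CACGTG, the E box of the TFEB type, in 0 of the 9 and in 7.15%. These are matches of letters only, and binding was not measured here.

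The C1q genes sit side by side on chromosome 4 (C1qa 136895917 to 136898803, C1qb 136880129 to 136886187 and C1qc 136889804 to 136893065, GRCm38, minus strand), with 2852 bases between C1qa and C1qc and 3617 between C1qb and C1qc. For C1qa, the A chain, WT 1 gave 76.1 CPM, the library labelled WT 2 gave 2.71, HET 1 gave 100.9 and HET 2 gave 52.1. C1qb, the B chain, was at 61.6, 0.997, 90.5 and 44.1 CPM in the same order. C1qc, the C chain, was at 67.6, 2.14, 85.9 and 49.1 CPM. All 3 chains thus ran in the same order of libraries, with HET 1 highest, WT 1 and HET 2 behind, and the library labelled WT 2 nearly without them at 38, 14 and 30 counts. WT 1 lay between the HET libraries for each chain, so the genotypes overlapped.

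Among the receptors, Csf1r, the tyrosine kinase receptor for CSF1 and IL34, reached 98.5 CPM in WT 1, against 10.3 in the library labelled WT 2. HET 1 gave 114 CPM of Csf1r and HET 2 gave 60.6. Its gene (chromosome 18, 61100598 to 61132149, plus strand) overlaps the antisense gene Hmgxb3 by 873 bases, and reads in that stretch cannot be assigned where the strand is not known. Hmgxb3 itself stayed between 33.99 and 47.4 CPM. Adgre1, which encodes the F4/80 antigen (chromosome 17, 57358691 to 57483527, plus strand), was at 25.9, 0.0712, 28.8 and 15.5 CPM in the same order of libraries, where the second value is 1 count. F4/80 was the member closest to absent in the library labelled WT 2.

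Trem2, the lipid-sensing receptor (chromosome 17, 48346401 to 48354147, plus strand), was the member of fewest counts outside that library, with 9.47 CPM for WT 1, 2.56 for the library labelled WT 2, 17.3 for HET 1 and 6.75 for HET 2. Mrc1, the mannose receptor CD206 (chromosome 2, 14229392 to 14332057, plus strand), was at 38.2, 1.64, 27.7 and 51.6 CPM in the same order. Mrc1 was the only member highest in HET 2, and WT 1 again lay between the HET libraries.

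The lysosomal products were Cd68 and Lyz2. Cd68, a glycoprotein of the lysosome membrane (chromosome 11, 69664213 to 69666153, minus strand), had 36.9 CPM for WT 1, 3.06 for the library labelled WT 2, 35.5 for HET 1 and 22.2 for HET 2. Lyz2, the macrophage form of lysozyme (chromosome 10, 117277331 to 117282321, minus strand), was at 348, 11.04, 307 and 204 CPM in the same order. WT 1 was the highest library for both. Lyz2 has a close paralog, Lyz1, 5476 bases away, with 8, 0, 9 and 34 counts, so how the counting shared reads between the pair is uncertain.

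Apoe, the secreted lipoprotein ligand (chromosome 7, 19696109 to 19699188, minus strand), gave the most counts of the 10, with 1221 CPM for WT 1, 124 for the library labelled WT 2, 2991 for HET 1 and 964 for HET 2. It made up 61.6% of the summed CPM of the 10 in WT 1 (95% exact binomial interval 61.0% to 62.2%, counting error only) and 65.6% (64.9% to 66.2%) in HET 2. Its share was 78.8% (78.4% to 79.1%) in HET 1 and 78.2% (76.4% to 79.9%) in the library labelled WT 2. The other 9 summed to 762, 34.5, 807 and 506 CPM in the order WT 1, WT 2, HET 1, HET 2, so HET 1 exceeded WT 1 by little once Apoe was left out.

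**Figure D1:**
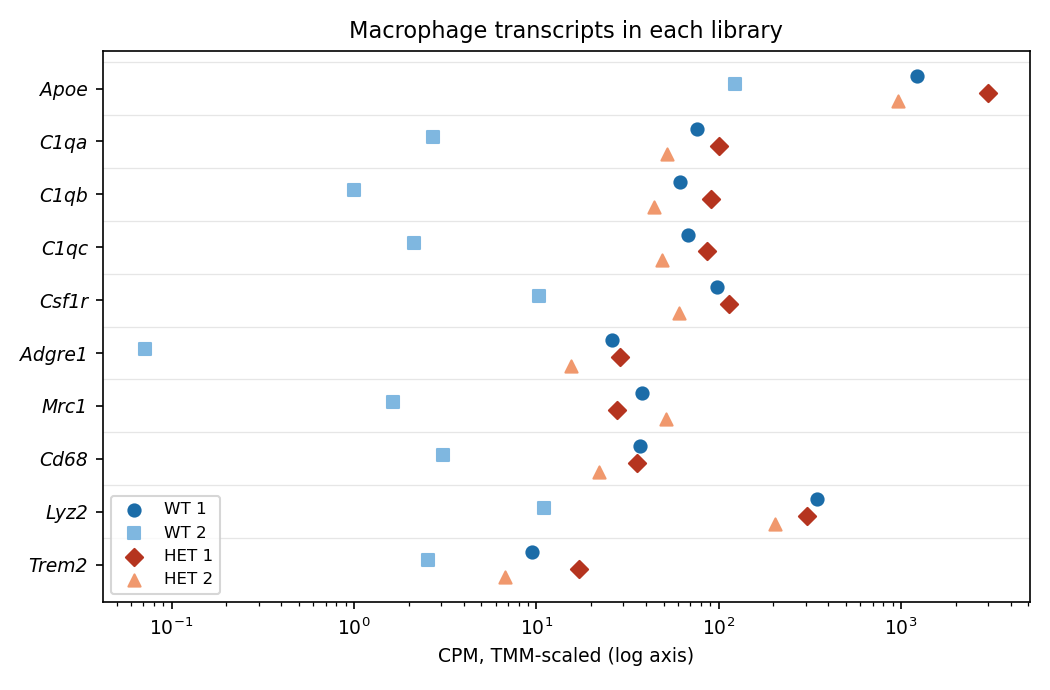
CPM (TMM-scaled, log axis) of the 10 macrophage transcripts, 1 point for each of the 4 libraries. The library labelled WT 2 is the lowest point in every row, and WT 1 lies between or above the HET points, as for C1qa at 76.1 CPM between 52.1 and 100.9.

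Compared per kilobase of exon, so that genes of different length can be set side by side, Apoe was the most abundant member in all 4 libraries, at 571, 57.8, 1399 and 451 CPM per kb in the order above. Lyz2 followed at 265, 8.39, 233 and 155, and C1qa at 73.1, 2.60, 97.0 and 50.1. Below them, WT 1 and HET 1 held a common order of C1qb, C1qc, Cd68, Csf1r, Adgre1, Mrc1 and Trem2. HET 2 differed only in Mrc1 (8.10 CPM per kb) above Adgre1 (4.79). In the library labelled WT 2 the order below C1qa was Cd68 (2.44), Csf1r (1.79), C1qc (1.11), C1qb (0.917), Trem2 (0.518), Mrc1 (0.257) and Adgre1 (0.0220), so Adgre1 and Mrc1 fell to the end. By the length of the principal transcript in place of the union of exons, Trem2 rose from 1.91 to 8.70 CPM per kb in WT 1. C1qb (56.6) and C1qc (56.2) then lay together in that library, so the lower ranks depend on the transcript model.

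With all 4 libraries, all 10 transcripts had a log2 fold change above 0 for HET over WT, and none of the 10 passed the test. In edgeR's quasi-likelihood test no gene at all had a Benjamini-Hochberg adjusted p under 0.05 (0% of 21607), so the count of 0 members is that of the background. At an unadjusted p under 0.05 the count of members was also 0, against 3.78% of genes in either direction and 1.95% of genes higher in HET. DESeq2 called 0 members at an adjusted p under 0.05, against 0.62% of genes (134). A log2 fold change above 0 was seen in 52.7% of all genes, whose median was 0.04, while the median of the 10 was 0.96. The direction was nevertheless not a separation: both HET libraries lay above both WT libraries for 0 of the 10, against 19.6% of all genes.

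In edgeR, Apoe showed the largest log2 fold change, 1.56 ± 1.06 (SE, n = 2 per genotype, edgeR adjusted p = 0.987). Lyz2 showed the smallest, 0.51 ± 1.25 (edgeR adjusted p = 0.99). The C1q chains lay between at 0.96 ± 1.23 (C1qa), 1.11 ± 1.40 (C1qb) and 0.95 ± 1.24 (C1qc). For Trem2 the estimate was 1.00 ± 0.77, for Mrc1 1.00 ± 1.17, for Adgre1 0.77 ± 1.57, for Csf1r 0.68 ± 0.93 and for Cd68 0.53 ± 0.99. In 8 of the 10 the standard error exceeded the estimate, the exceptions being Apoe and Trem2. Each estimate was also smaller than the standard deviation of log2 CPM within the WT pair. That ran from 1.29 (Trem2) to 4.89 (Adgre1), with Apoe at 2.34.

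The estimates turned on which WT library was used. With the library labelled WT 2 left out, the log2 fold change was above 0 for 5 of the 10, against 51.6% of all genes, and the median of the 10 was 0.00. Csf1r was then at -0.18, Adgre1 at -0.23, Cd68 at -0.36, Lyz2 at -0.45 and C1qc at -0.0021, while Apoe kept the highest value, 0.70, and C1qa and C1qb were at 0.01 and 0.13. With WT 1 left out instead, so that the library labelled WT 2 stood alone for WT and was assumed to vary as the HET pair does, 9 of the 10 passed as higher in HET in edgeR, against 2.28% of all genes. Adgre1 was then at 8.12 (edgeR adjusted p = 0.00717), C1qb at 6.06 (0.00703) and Mrc1 at 4.59 (0.0122). Trem2 was the exception, at 2.23 (edgeR adjusted p = 0.124). These calls compare both HET libraries with that single WT library.

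**Figure D2:**
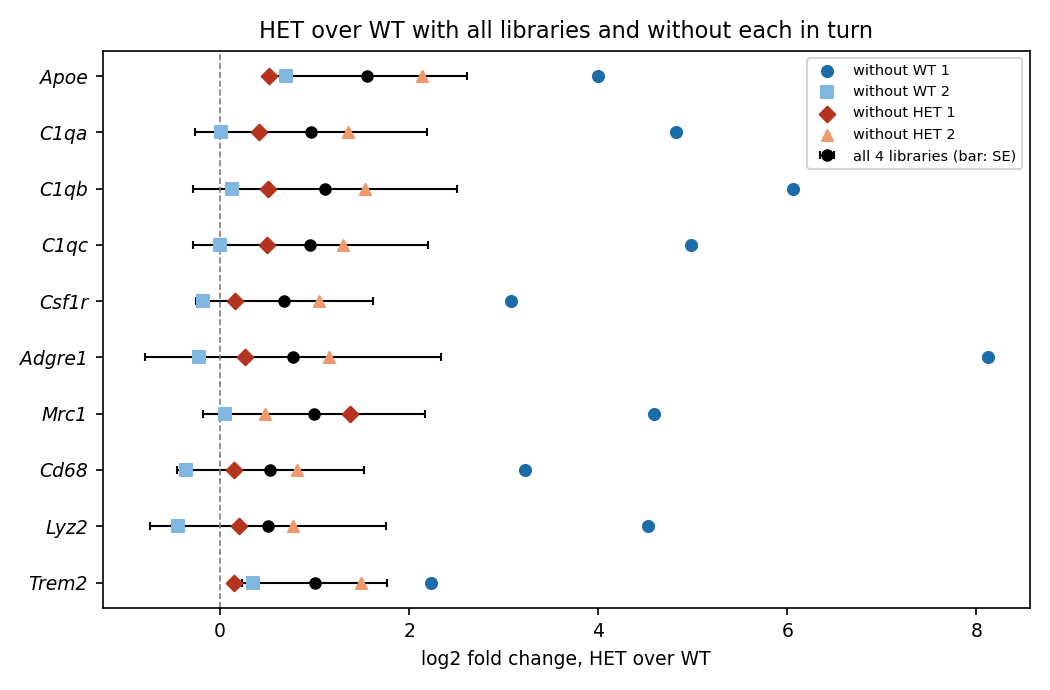
Log2 fold change of HET over WT for each of the 10 transcripts, estimated with all 4 libraries and with each library left out in turn. Without the library labelled WT 2 the points gather around 0 (from -0.45 for Lyz2 to 0.70 for Apoe), and without WT 1 they lie between 2.23 (Trem2) and 8.12 (Adgre1).

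The library labelled WT 2 was the lowest of the 4 for all 10 transcripts, against 38.1% of all genes. In bulk RNA, fewer macrophages and less of each transcript per macrophage cannot be told apart. The members did not drop by a common factor. WT 1 exceeded the library labelled WT 2 by 3.69-fold for Trem2 (95% exact counting interval 2.52 to 5.52), 9.54-fold for Csf1r (8.02 to 11.4), 9.88-fold for Apoe (9.40 to 10.4) and 12.1-fold for Cd68 (8.81 to 16.9). A middle group held Mrc1 at 23.3-fold (15.4 to 37.1), C1qa at 28.1-fold (20.3 to 40.0), Lyz2 at 31.5-fold (26.9 to 37.3) and C1qc at 31.6-fold (22 to 47.2). C1qb stood at 61.8-fold (36.6 to 113) and Adgre1 at 364-fold (64.9 to 14420), the latter resting on 1 count. These intervals cover counting error only and compare 2 libraries.

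The proportions among the members therefore differed in that library. Per unit of summed C1q, Apoe was at 21.2 in the library labelled WT 2, against 5.95 in WT 1, 10.8 in HET 1 and 6.64 in HET 2. Csf1r per C1q was at 1.77 there and between 0.411 and 0.480 in the others. For Trem2 it was 0.439 there, against 0.0461 to 0.0623. For Cd68 the value was 0.524 there, against 0.128 to 0.180. Lyz2 per C1q was at 1.89 against 1.11 to 1.70, and Mrc1 per C1q, at 0.281, lay within the range of the other libraries, 0.0999 to 0.355. Adgre1 went the other way, at 0.0122 against 0.104 to 0.126. Among WT 1, HET 1 and HET 2 the ratio of Csf1r to C1q was the steadiest of these, and those of Apoe and Mrc1 varied most.

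**Figure D3:**
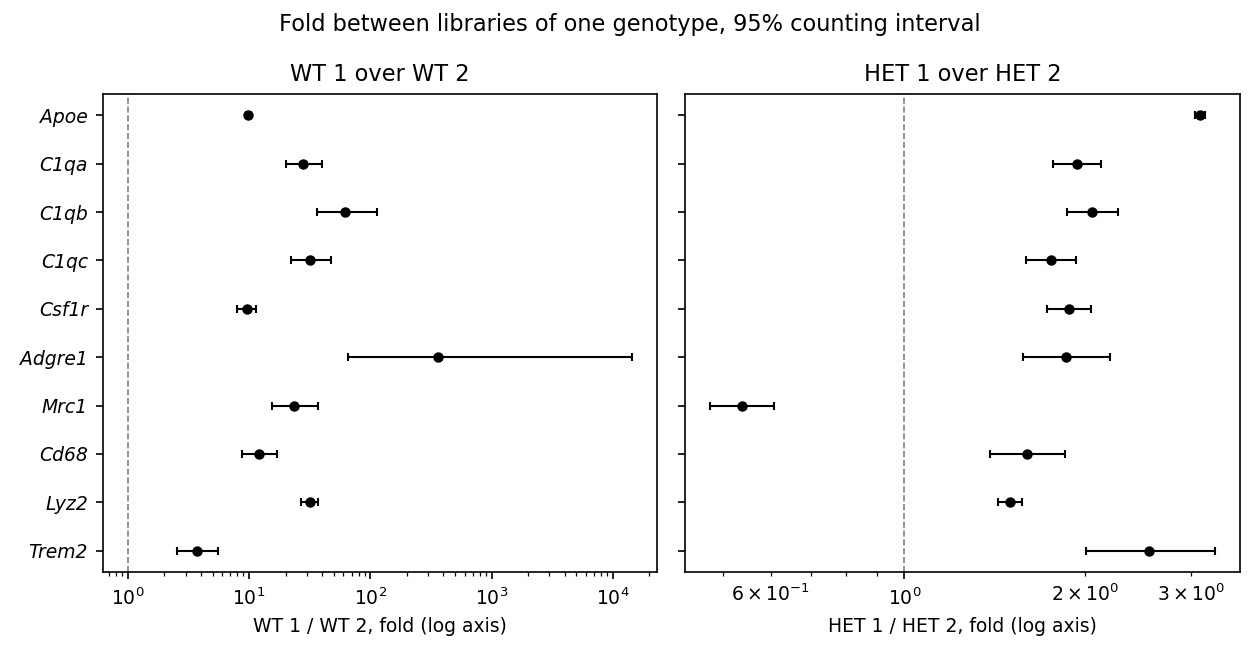
Fold between the 2 libraries of each genotype for the 10 transcripts (log axes), with 95% exact counting intervals: WT 1 over the library labelled WT 2 on one side and HET 1 over HET 2 on the other. The WT pair spans 3.69-fold to 364-fold, while the HET pair spans 0.537-fold to 3.10-fold with Mrc1 alone below 1.

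The HET libraries also differed from each other. HET 1 was the highest of the 4 libraries for 7 of the 10, against 25.2% of all genes. HET 1 exceeded HET 2 by 3.10-fold for Apoe (95% exact counting interval 3.04 to 3.17) and 2.56-fold for Trem2 (2.01 to 3.28). The C1q chains followed at 2.05-fold (C1qb, 1.86 to 2.26), 1.94-fold (C1qa, 1.77 to 2.12) and 1.75-fold (C1qc, 1.60 to 1.93), with Csf1r at 1.88-fold (1.73 to 2.05) and Adgre1 at 1.86-fold (1.57 to 2.20). Cd68 and Lyz2 differed least, at 1.60-fold (1.39 to 1.85) and 1.499-fold (1.43 to 1.57). Mrc1 went the other way, at 0.537-fold (0.475 to 0.607). HET 2 was thus above HET 1 for 1 of the 10, against 49.7% of all genes.

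The mannose receptor is known as a marker of alternatively activated and resident macrophages, so other genes listed for those states were read beside it. Of 14 such genes tested, 9 (64.3%) were higher in HET 2 than in HET 1, against 49.7% of all genes and 63.6% of 11 endothelial markers, so this share lay near the background. Of 27 other macrophage and phagocyte genes, 2 (7.41%) were higher in HET 2. These were Clec4n, the lectin Dectin-2, at 1.61-fold (95% exact counting interval 1.23 to 2.11) and the receptor gene Cd300lb at 1.61-fold (0.957 to 2.74). These and the genes named next were picked with their values in view. Lyve1, a hyaluronan receptor of perivascular macrophages and also of lymphatic endothelium, had 74 counts in HET 2 and 8 in HET 1, a 10.6-fold difference (95% exact counting interval 5.10 to 25.4). Timd4, a phosphatidylserine receptor of resident macrophages, had 31 and 8 counts (4.43-fold, 1.99 to 11.2), and Folr2, a folate receptor of the same cells, 22 and 8 (3.14-fold, 1.35 to 8.17). Cd163, the haemoglobin scavenger receptor, was 1.78-fold higher in HET 2 (1.31 to 2.44). Other genes of the list were lower in HET 2: Mgl2, a C-type lectin, was at 0.599-fold (0.438 to 0.813), Msr1, the scavenger receptor A, at 0.741-fold and Stab1, the scavenger receptor stabilin-1, at 0.768-fold. The HET comparison is of 1 library with 1 library and has no replicate check, and endothelial markers summed to 519 CPM in HET 1 and 663 in HET 2. The part of endothelial RNA in the Lyve1 difference was not tested.

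**Figure D4:**
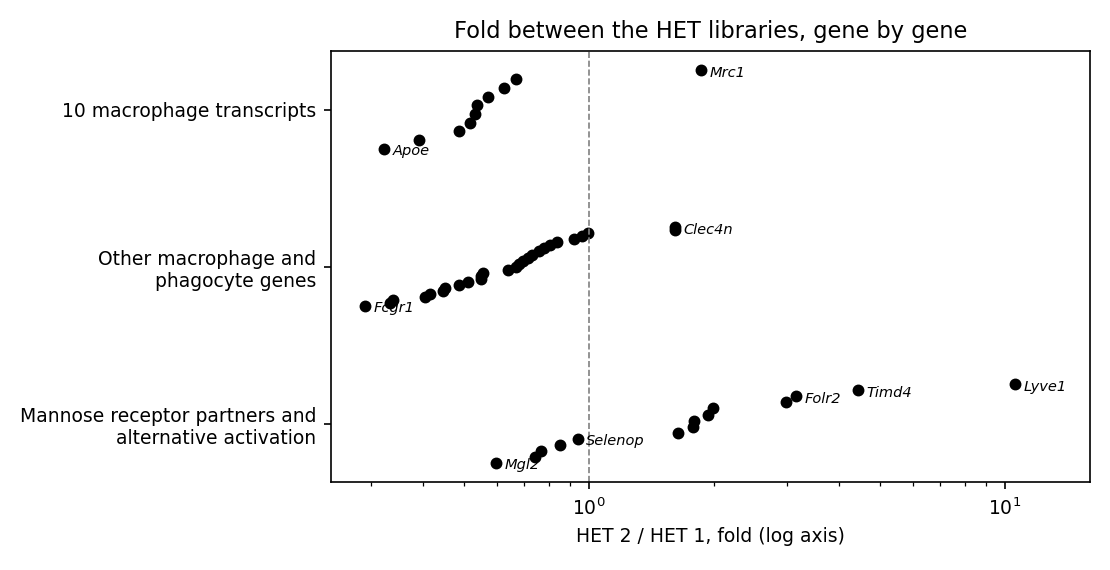
HET 2 over HET 1 for single genes (log axis), 1 point a gene, for the 10 transcripts, for mannose receptor partners and alternative activation genes, and for other macrophage genes. Of the first group only Mrc1 lies above 1, of the second 9 of 14 and of the third 2 of 27.

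Against WT 1 alone, the HET libraries lay on either side. HET 1 was above WT 1 for 7 of the 10, with a median of 1.21-fold and a range from 0.726-fold (Mrc1) to 2.45-fold (Apoe). HET 2 was above WT 1 for Mrc1 alone (1.35-fold, 95% exact counting interval 1.20 to 1.52), with a median of 0.699-fold and a lowest value of 0.587-fold (Lyz2). Both HET libraries share WT 1 in these values.

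Of the 12 genes of the CSF1 axis tested, 10 were lowest in the library labelled WT 2 (83.3%, against 38.1% of all genes), as Csf1r was, and Csf1 itself differed little between the WT libraries. Csf1 had 104 CPM for WT 1, 98.2 for the library labelled WT 2, 62.9 for HET 1 and 51.9 for HET 2, a log2 fold change of -0.81 ± 0.28 (edgeR, unadjusted p = 0.0276, adjusted p = 0.987). Both HET libraries were below both WT libraries for Csf1, as they were for 3426 of all 21607 genes, and Csf1 did not pass. Il34, the other ligand, was at 4.38, 2.28, 6.04 and 2.60 CPM in the same order, in which the values of single genes are given from here on. Its libraries ran in the order of those of Csf1r. Spi1, which encodes PU.1, was at 20.2, 0.427, 17.3 and 11.2 CPM, with 6 counts in the library labelled WT 2. WT 1 exceeded that library by 47.3-fold for Spi1 (95% exact counting interval 21.4 to 130) and by 1.05-fold for Csf1 (0.976 to 1.14). In this axis 0 genes passed in either direction, 10 were above 0 and the median was 0.43 (0.01 without the library labelled WT 2, 1.04 without WT 1, and 0.27 without HET 1).

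The proteases that complete the C1 complex did not follow the C1q chains. C1ra was at 49.2, 85.8, 47.3 and 51.8 CPM and C1s1 at 46.9, 88.9, 54.3 and 34.5 CPM, both highest in the library labelled WT 2, where C1q was nearly absent. C3, the central complement component, was likewise highest there, at 783 CPM against 555, 631 and 186 in WT 1, HET 1 and HET 2. The receptor C3ar1, which macrophages carry, followed C1q instead, at 28.5, 0.784, 26.5 and 19.5 CPM. Of 18 complement genes tested, 0 passed in either direction, 8 were above 0 and 10 below. Their median was -0.31 (-0.02 without the library labelled WT 2, -0.55 without HET 1 and -0.16 without HET 2). The library labelled WT 2 was the highest for 8 of the 18, against 5755 of all 21607 genes. C3 and C3ar1 were picked with their values in view.

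Tyrobp, the adaptor through which TREM2 signals, was at 25.2, 0.712, 26.0 and 19.0 CPM, a drop from WT 1 to the library labelled WT 2 of 35.4-fold (counting interval 19.0 to 74.6) against 3.69-fold for Trem2. Plcg2, a phospholipase downstream of it, was at 71.3, 145, 81.3 and 52.8 CPM and so was highest in that library. Of 10 genes of this signalling list, 0 passed in either direction, 7 were above 0 and the median was 0.89 (0.08 without the library labelled WT 2, 2.69 without WT 1 and 0.56 without HET 1). The lipid-associated macrophage genes gave a median of -0.12 over 14 tested, with 6 above 0 and 0 passing in either direction (-0.38 without the library labelled WT 2, -0.08 without WT 1, -0.20 without HET 1 and -0.23 without HET 2). Among them Fabp5, a fatty acid carrier, was at 47.6, 41.0, 14.0 and 23.4 CPM (log2 fold change -1.25 ± 0.36, edgeR unadjusted p = 0.014, adjusted p = 0.987). Cd63, a tetraspanin of late endosomes, was at 131, 113, 71.1 and 79.2 CPM. Fabp4, another carrier, was at 42.4, 7.98, 68.9 and 88.0 CPM. Epithelial and endothelial cells also express these carriers, so they are not specific to macrophages here.

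Around Apoe, the neighbouring apolipoprotein gene Apoc1, 3449 bases away, was at 2.07, 1.99, 3.96 and 25.5 CPM (log2 fold change 2.85 ± 0.91, edgeR unadjusted p = 0.0196, adjusted p = 0.987). Its high library was HET 2, whereas Apoe peaked in HET 1. Abcg1, a cholesterol exporter, was at 24.2, 16.2, 38.8 and 28.7 CPM, and Lrp1, a receptor that takes up APOE particles, at 367, 1059, 486 and 329 CPM. Of 14 genes of APOE handling, 0 passed in either direction, 10 were above 0 and the median was 0.18 (0.44 without WT 1, 0.11 without the library labelled WT 2, 0.10 without HET 1 and 0.07 without HET 2).

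In the list of alternative activation, 0 of 14 tested passed in either direction and the median was 0.77. It was 0.37 without the library labelled WT 2, 4.91 without WT 1 and 0.16 without HET 2. Retnla, a secreted product of such cells, was at 0.398, 0, 1.49 and 4.45 CPM, Selenop, the selenium carrier, at 94.98, 64.8, 142 and 134 CPM, and Arg1, arginase 1, at 30.2, 84.7, 27.5 and 23.4 CPM. For classical activation, 0 of 13 passed and the median was 0.42. It was 0.06 without the library labelled WT 2, 0.24 without WT 1, -0.003 without HET 1 and 0.15 without HET 2. Ptgs2, cyclooxygenase 2, was highest in the library labelled WT 2, at 89.6, 412, 90.0 and 61.7 CPM. Of 27 other macrophage and phagocyte genes, 0 passed in either direction, 24 were above 0, 25 were lowest in the library labelled WT 2 and the median was 0.70 (-0.18 without that library, 3.79 without WT 1 and 0.23 without HET 1). Ctss, the lysosomal cathepsin S, picked with its values in view, was at 246, 4.70, 327 and 136 CPM.

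Markers of other cells were measured beside the macrophage transcripts. Ptprc, which encodes the CD45 protein used in the sort, was at 62.1, 2.85, 73.4 and 66.1 CPM, and 13 pan-leukocyte genes summed to 376, 29.0, 431 and 363 CPM. Leukocyte transcripts were therefore detected in all 4 libraries in spite of the sort, and all 13 genes were lowest in the library labelled WT 2. Epcam, the epithelial adhesion molecule of the tumour cells, was at 1040, 1288, 769 and 613 CPM, and the 10 epithelial markers summed to 4180, 3766, 3027 and 2470 CPM. The epithelial genes did not move as one between the WT libraries. The library labelled WT 2 was the highest for 5 of the 10, Epcam among them, against 5755 of all 21607 genes. The keratin Krt8, picked with its values in view, was at 788 CPM in WT 1 and 330 in the library labelled WT 2. T and NK cell markers summed to 29.2, 14.5, 70.2 and 80.6 CPM and B cell markers to 17.98, 3.49, 38.9 and 98.6 CPM. Both HET libraries lay above both WT libraries for 11 of 14 of the former and 7 of 7 of the latter, against 0 of the 10 macrophage transcripts and 19.6% of all genes. Neutrophil markers, of interest because neutrophils also make Lyz2, gave no common level. Most of their sum in WT 1 was Mmp9 (84.0 of 130 CPM) and most of it in HET 1 was Ltf (64.9 of 102 CPM), 2 genes picked with their values in view. Cxcr2, a chemokine receptor, was at 8.83, 2.78, 10.3 and 12.2 CPM. Csf3r, at 8.27, 0.926, 10.3 and 7.87 CPM, ran in the order of the C1q chains. S100a9, a calgranulin, was at 7.56, 0.427, 2.60 and 5.57 CPM, and Ly6g had 9, 2, 8 and 3 counts. S100a9 and Ly6g were also picked with their values in view. Fibroblast markers summed to 7645, 23630, 4635 and 5731 CPM. All 10 of them were highest in the library labelled WT 2, against 5755 of all 21607 genes. The macrophage transcripts were lowest in that library. The part of these other cells in the differences of the macrophage transcripts was not tested.

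Relative to WT 1, the 9 transcripts without Apoe were at 1.06 in HET 1, 0.664 in HET 2 and 0.0453 in the library labelled WT 2. The pan-leukocyte sum was at 1.15, 0.968 and 0.0772 for the same libraries. HET 2 therefore had a leukocyte level near that of WT 1 and a lower level of macrophage transcripts, beside T and NK cell markers at 2.76 and B cell markers at 5.48. Per unit of pan-leukocyte sum, the 10 transcripts together were at 5.28 for WT 1 and 5.46 for the library labelled WT 2. HET 1 gave 8.82 and HET 2 gave 4.05, so the genotypes overlapped. Apoe, which other cells also make, was 61.6% to 78.8% of the 10, so near-equal values do not show a kept macrophage share. Single members went both ways from WT 1 to the library labelled WT 2: Lyz2 from 0.927 to 0.381 and Trem2 from 0.0252 to 0.0885. The leukocyte genes also dropped unequally, from 2.31-fold (Arhgdib) to 255-fold (Laptm5). The summed C1q per pan-leukocyte level was at 0.547, 0.202, 0.644 and 0.400.

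**Figure D5:**
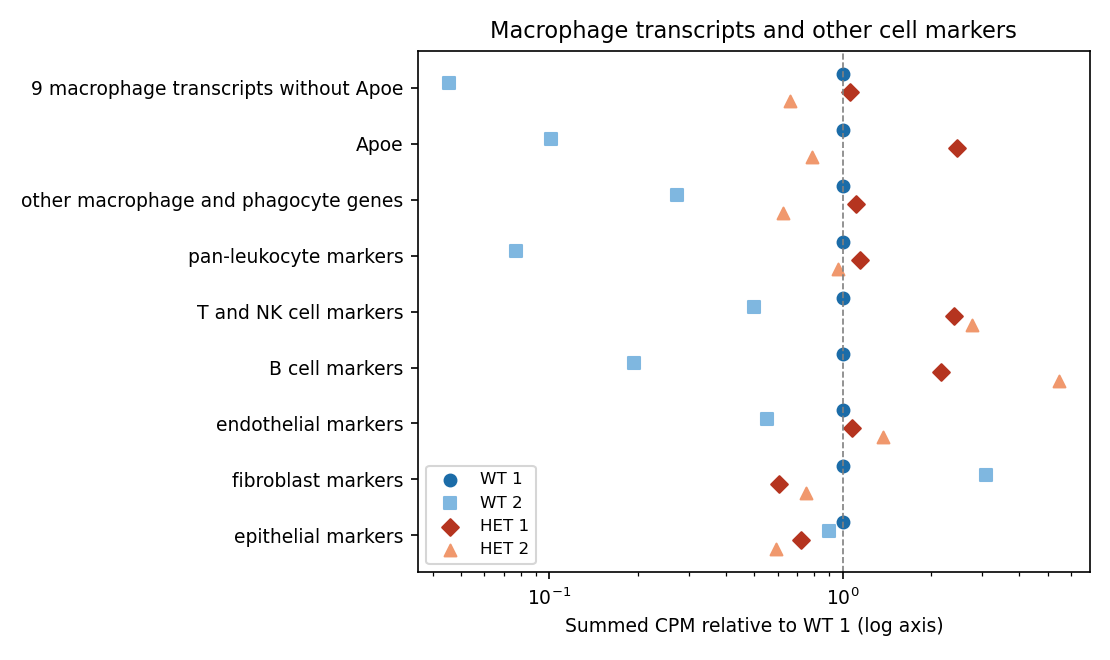
Summed CPM of marker groups relative to WT 1 (log axis), 1 point a library. In the library labelled WT 2 the 9 macrophage transcripts (0.0453) and the pan-leukocyte markers (0.0772) lie far left of 1 and the fibroblast markers (3.09) lie right of it, while both HET libraries are above 2 for T and NK cell and B cell markers.

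Genes whose pattern over the 4 libraries was most like the mean profile of the 10 were found among 13188 protein-coding genes by the root mean square difference of library-centred log2 CPM. The nearest 8 were Lmo2 (0.063), Gpr65 (0.077), Fermt3 (0.078), Bcl2a1b (0.127), Ccl3 (0.137), Plek (0.139), Lilrb4a (0.143) and Tlr9 (0.144), against a median of 1.94 over the candidates. Fermt3, an integrin activator of blood cells, was at 21.96, 0.926, 29.8 and 17.7 CPM, and Ccl3, a chemokine, at 10.3, 0.285, 13.8 and 7.72 CPM. Lilrb4a, an inhibitory receptor of myeloid cells, was at 57.4, 1.99, 65.8 and 37.6 CPM. Bcl2a1b and Lilrb4a belong to families of near-identical genes, so their counts are uncertain. The members themselves lay between 0.179 (C1qa) and 1.05 (Adgre1) from their own mean. A likeness over 4 libraries, of which 1 stands far from the rest, orders genes mainly by their drop in that library.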

How the data were processed

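Estimated counts of each gene were deposited by the authors in 1 table. The submitters' processing notes name Salmon and build GRCm38.p5. The sources used here do not give the version of Salmon, the transcript set or whether libraries were stranded. Identifiers were matched to GENCODE M21 (193 unmatched), which gave symbols, coordinates and exon lengths. Estimated counts were rounded and tested in edgeR 4.0.16 (R 4.3.3) with filterByExpr, TMM, a quasi-likelihood fit on genotype alone and Benjamini-Hochberg adjustment over 21607 genes, at a threshold of 0.05. The steps were tested on simulated data. DESeq2 1.42.0, limma-voom (limma 3.58.1), other scalings and filters, and leaving out each library were alternatives. Leave-one-out fits kept the same genes. CPM use TMM library sizes. Pattern likeness used a prior count of 2. Counting intervals are exact at 95% and leave out other error, since reads were not tagged by molecule. All pairs of libraries differed beyond sampling noise (chi-square per degree of freedom 44.0 to 111).

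Members and gene lists were chosen with earlier results of these data known. The text names the 10 members, Elf5, up to 3 genes of smallest p per list, genes that a member's biology needs, and the 8 nearest patterns. Other genes are marked where they are named.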

Additional observations from a re-analysis of the deposited data

How the results depend on the processing

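For the 10 transcripts, 110 values were recomputed under 11 alternatives: 96 kept their direction and side of the threshold, 9 passed the threshold (all without WT 1) and 5 reversed (all without WT 2). Passing members ranged from 0 to 9 when single libraries were left out, and passing genes from 0 to 657. Passing genes numbered 324 with no filter beyond 1 count and 134 in DESeq2, and 0 in limma-voom. Leave-one-out log2 fold changes ran from -0.0021 to 4.98 for C1qc, -0.18 to 3.08 for Csf1r, -0.23 to 8.12 for Adgre1, -0.36 to 3.23 for Cd68 and -0.45 to 4.53 for Lyz2. The 5 lowest values are those without the library labelled WT 2, and the cause was not tested. With all libraries kept, every member stayed above 0 under each scaling, filter and tool. The lowest edgeR, DESeq2 or limma-voom adjusted p was 0.0764 (Apoe, edgeR, no filter beyond 1 count). The size of the estimate depended on the tool. Adgre1 was at 3.88 in limma-voom against 0.77 in edgeR, C1qb at 3.08 against 1.11 and Lyz2 at 2.03 against 0.51. Trem2 moved little, at 1.18 against 1.00. In limma-voom Adgre1 was the highest member and Trem2 the lowest, so the ranking by edgeR did not hold there. The members' level per leukocyte level, Apoe included, gave a log2 HET over WT of 0.15 with the pan-leukocyte sum and -0.31 with Ptprc alone. Of 171 list medians, 159 moved by less than the spread between replicates and 12 by more, 11 of them without WT 1 and 1, the fibroblast list, without WT 2. The principal transcript length was an alternative chosen after seeing the data. No paired analysis was possible because the titles link no WT tumour to a HET tumour. Their tumour numbers are T1 in both WT libraries and T1 and T2 in the HET libraries, and these do not make pairs.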

Other observations

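Genes of cells related to macrophages were read in the same libraries, in the order WT 1, the library labelled WT 2, HET 1, HET 2, and were picked with their values in view. Of 9 monocyte markers tested, 0 passed in either direction in edgeR (0 at an unadjusted p under 0.05), and 7 were lowest in the library labelled WT 2. Ccr2, the chemokine receptor of inflammatory monocytes, was at 17.6, 0.142, 11.4 and 10.9 CPM. Ly6c2, a surface antigen of the same cells, had 71, 1, 64 and 64 counts, and Cx3cr1, the fractalkine receptor, was at 36.9, 2.35, 46.5 and 28.1 CPM. WT 1 lay above both HET libraries for Ccr2 and Ly6c2, as for the members Cd68 and Lyz2 but unlike Apoe and the C1q chains. Cx3cr1 ran in the order of the C1q chains. Plac8 (7.88, 5.77, 5.32 and 6.23 CPM) stayed level across the 4 libraries.

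Dcstamp, which encodes a fusion protein of osteoclasts and macrophage giant cells, was at 9.23, 0.285, 9.54 and 2.45 CPM, so its HET libraries differed more than those of any C1q chain. Of 8 dendritic cell markers tested, 5 were lowest in the library labelled WT 2. The transcription factor genes Zbtb46 (6.84, 9.62, 14.3 and 13.1 CPM) and Batf3 (4.46, 7.27, 9.54 and 9.94 CPM) were among the other 3, each above WT 1 there. Ccr7, the homing receptor of migrating dendritic cells, was at 1.91, 0.0712, 4.61 and 4.53 CPM, and neither it nor the other markers passed. Mmp9, the gelatinase B gene listed for neutrophils, was at 84.0, 13.96, 9.28 and 8.16 CPM (log2 fold change -2.49 ± 0.81, edgeR unadjusted p = 0.0211), with WT 1 far above the other libraries.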
